A study of Homo sapiens with 8 samples.

Results

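The genes described here were chosen by symbol from families of membrane trafficking and of transport through the nuclear pore, a few of them belonging by name alone, and each carried at least 1 candidate site of N4-acetylcytidine (ac4C) in human embryonic stem cells of the H1 line. They came from 2 deposited site lists: the families RAB, ARF, ARFGAP, COP, SEC, VPS, SNX, AP-1 to AP-4, TMED, VAMP, STX, EXOC, CLT and TRAPPC formed the vesicle transport subset, and NUP, XPO, IPO, KPN and TNPO the nuclear transport subset. The rule found 41 of the 1506 listed genes, 32 in vesicle transport and 9 in nuclear transport, with 51 of the 1851 distinct sites. Of these genes, 39 were protein-coding and 2 were noncoding: RAB30-DT, a transcript that starts beside RAB30, and RAB4B-EGLN2, a readthrough of neighbouring genes.

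The study compared wild-type (WT) H1 cells with H1 cells carrying a lentiviral shRNA against NAT10 and GFP (NAT10 KD), which were transduced for 48 h, enriched for GFP and then grown under puromycin at 0.5 µg/ml in TeSR-E8 medium. The labels describe no control shRNA for WT, so the knockdown and the transduction, selection and medium cannot be told apart. For each genotype, 2 libraries of mRNA treated with sodium cyanoborohydride and 2 untreated input libraries were made, 8 in all. The files used here hold 1 list per genotype, giving each site's hg38 position, strand and gene together with a score computed by the authors. How the score was computed is not stated, and it is used here to rank sites inside a list. Where values of both lists stand side by side, they are a description, since a score may not be on the same footing in separate lists. Depth, conversion levels and replicate values were not analysed here. No value below therefore carries a replicate error, and no test of the genotypes was made. Intervals of shares are exact Clopper-Pearson intervals at 95% and cover counting error only. Intervals of medians are exact binomial intervals at 95% on the ranked values, and cover only the spread among listed sites.

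NAT10 is the acetyltransferase that writes ac4C, and in ac4C sequencing the reduced base is read partly as T. Membrane trafficking moves proteins between compartments in coated vesicles: ARF and Rab GTPases mark membranes, coats and adaptors select cargo, tethers hold an arriving vesicle, and SNARE proteins fuse it. Nuclear transport runs through pores built of nucleoporins, with importins carrying cargo in and exportins carrying it out. The lists hold no expression level, so the cell type could be checked only by sites in pluripotency genes. POU5F1 had 1 site in each list, SOX2 1 in WT, LIN28A 1 in NAT10 KD, and NANOG 0 in both.

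Of the 51 member sites, 3 lay within the reference sequence at hand, a window of 300 bases around each annotated gene start (250 before and 50 after, RefSeq, GRCh38.p14). They are shown because the assay can only call a C, and because 2 of them, in NUP93 and STX16, were among the few positions found in both lists. Each is written 5′ to 3′ on the strand of the site, with the listed base in capitals as base 15.
NUP93, chr16:56730174-56730202, plus strand: agccggcacctgagCggcggagacggctg
STX16, chr20:58651311-58651332, plus strand: gaggagtgagaaggCcggggag
STX8, chr17:9575781-9575809, minus strand: gatggcaccggaccCctggtgagtcccgg
The NUP93 sequence was read from the window of NUP93-DT, which starts on the opposite strand, and the STX16 sequence stops where the window ends. All 3 listed bases were a C. The same held for all 94 distinct sites of both lists that fell in such a window (100%, interval 96.2 to 100). C made up 29.2% of the bases of these windows on the strand of the site. Since the assay can only call a C, the 100% checks how positions and strands were read. It is no result about the sites. The triplet centred on the site was GCG in NUP93, GCC in STX16 and CCC in STX8. CCG with the listed C in the middle, a context known for ac4C in ribosomal RNA, was at none of these 3 sites. It was at 9 of the 92 window sites with both neighbours at hand (9.78%, interval 4.57 to 17.8), beside 9.21% of all C in the same windows. The listed C stood before a G at 47 of the 92 (51.1%, interval 40.4 to 61.7), beside 29.9% of all C there. Most bases of a window lie before the annotated start, so they need not be transcribed as the sites are. The shares of sites and of all C thus come from unlike sequence, and a preference of the sites was not tested. Only the strand of the site was searched, and the 2 triplet counts overlap, since CCG also has its C before a G.

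The vesicle transport subset held 27 sites in 23 genes in WT and 14 sites in 13 genes in NAT10 KD. Its share of the list was 2.69% in WT (interval 1.78 to 3.88) and 1.47% in NAT10 KD (0.808 to 2.46), so the intervals overlap. Of its 41 list entries, 34.1% were in NAT10 KD (interval 20.1 to 50.6), beside 48.6% of all 1955 entries. The interval of the subset covers the share over all entries. The nuclear transport subset held 6 sites in 5 genes in WT and 7 sites in 7 genes in NAT10 KD, or 0.597% (0.219 to 1.29) and 0.737% (0.297 to 1.51) of the lists. Of its 13 list entries, 53.8% were in NAT10 KD (interval 25.1 to 80.8), and this interval also covers the 48.6% of all entries. The plot of list shares shows the shares of the lists for both subsets.

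**Figure D1:**
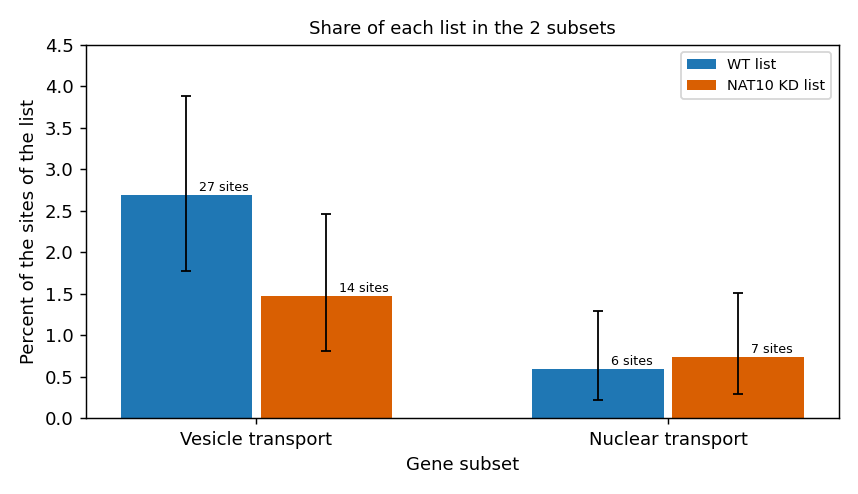
Share of the sites of each list (vertical axis, percent) that lay in genes of vesicle transport and nuclear transport, for the WT list (blue) and the NAT10 KD list (orange). Bars give the share, error bars the exact 95% interval for counting error, and labels the number of sites. The WT bar is the higher for vesicle transport (27 against 14 sites) with overlapping intervals, and nuclear transport has 6 and 7 sites.

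In WT the median score of member sites was 1.61 (interval of the median 1.51 to 1.79, range 1.32 to 4.81), beside 1.70 over the whole list. In NAT10 KD it was 1.56 (interval 1.39 to 1.81, range 1.31 to 2.30), beside 1.72. Both intervals cover the median of the whole list. The lists begin at 1.30155 and 1.30173. A score of 2 or more was reached by 7 of 33 member sites in WT (21.2%), where 33.7% of all sites did, and by 2 of 21 in NAT10 KD (9.52%), where 31.9% did. The highest member site ranked 62 among the 1005 WT sites, and that of NAT10 KD 216 among 950. The 7 WT sites that reached 2 all lay in the vesicle transport subset, while the 2 in NAT10 KD lay in ARF3 and NUP93. The 7 include sites of RAB5IF and of the signal peptidase gene SEC11C, which are in the subset by symbol.

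**Figure D2:**
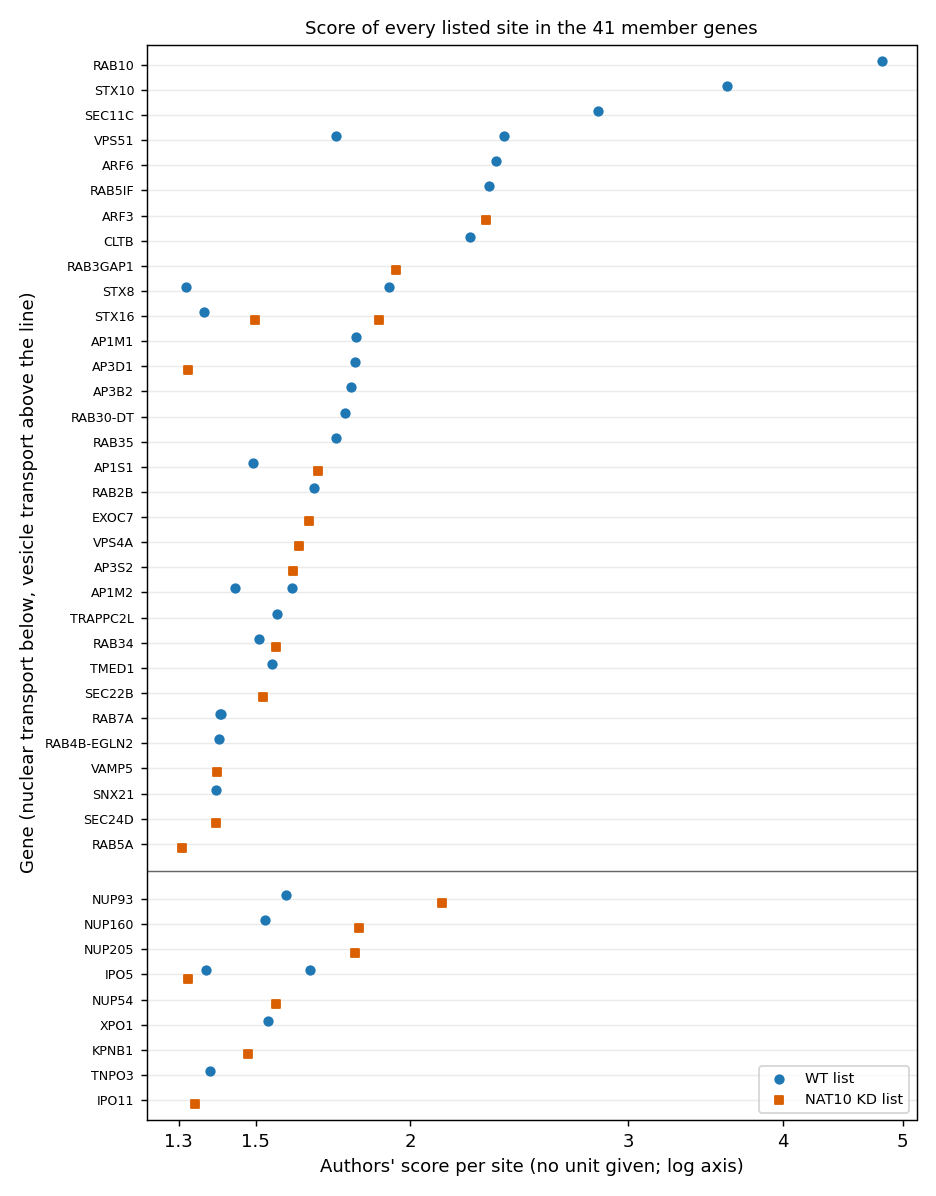
The authors' score of every listed site (horizontal log axis, no unit given) in the 41 genes, with nuclear transport below the line and vesicle transport above it. Blue circles are WT sites and orange squares NAT10 KD sites. Most sites lie under 2, and the highest are RAB10 (4.81) and STX10 (3.61) in WT.

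Rab GTPases switch between a GTP form on membranes and a GDP form in the cytosol. Of the 6 listed, 5 had WT sites and 2 had NAT10 KD sites, RAB34 being in both lists. RAB10, which acts in secretion and recycling, had the highest score of all members, 4.81 in WT (chromosome 2, position 26109776, plus strand, 73.4% of the way along the gene). It had no NAT10 KD site. RAB7A, the Rab of late endosomes and lysosomes, had 2 plus-strand WT sites on chromosome 3, at positions 128806486 and 128813773, with scores of 1.40 and 1.41. They lay 90.6% and 98.8% along the gene span. RAB5A, the Rab of early endosomes, was in the NAT10 KD list alone at 1.31 (chromosome 3, position 19983753, 96.3% along), close to the lowest score listed there, at a position that also lies inside PP2D1.

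RAB34, a Rab of Golgi and cilium formation, had a WT site at position 28715694 of chromosome 17 (score 1.51, 65.9% along) and a NAT10 KD site at position 28714674 (1.56, 90.5% along), 1020 bp nearer the 3′ end of this minus-strand gene. RAB35, of endocytic recycling, scored 1.74 and RAB2B, of the early secretory pathway, 1.67, both in WT, and the RAB2B site also lay inside LOC124903283. Genes that the rule takes by name rather than as GTPases were RAB3GAP1, a subunit of a regulator of Rab GTPases (1.95 in NAT10 KD, chromosome 2, position 135135597, plus strand, 67.1% along), RAB5IF (2.32 in WT, chromosome 20, position 36609681, plus strand, 57.6% along), RAB30-DT (1.77 in WT) and RAB4B-EGLN2 (1.40 in WT). The RAB4B-EGLN2 site also lay inside EGLN2, and the RAB5IF site inside the readthrough gene TGIF2-RAB5IF, so their reads cannot be assigned to 1 gene. The annotation has 74 protein-coding genes whose symbols fit the RAB pattern, and 8 of them had a site in either list (10.8%, interval 4.78 to 20.2), beside 7.08% of all protein-coding genes. Expression was not analysed here, and a gene must be transcribed to be listed, so such shares describe the lists only.

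ARF GTPases recruit coats and adaptors to membranes. ARF6, the family member of the plasma membrane and endosomes, scored 2.35 in WT (chromosome 14, position 49893265, plus strand, 4.61% along), 184 bases into the gene. ARF3, a Golgi ARF, had the highest member score of the NAT10 KD list, 2.30 (chromosome 12, position 48939704, minus strand, 81.7% along). Neither gene was in the other list. They were 2 of the 5 genes that fit the ARF pattern (40.0%, interval 5.27 to 85.3), and the interval covers the 7.08% of all protein-coding genes. The 3 ARFGAP genes and the 8 genes that fit the COP pattern had 0 sites, counts too few to set against the 7.08% of all protein-coding genes (intervals up to 70.8% and 36.9%). The COP pattern does not take every coat gene. ARCN1, a coat gene outside it, had NAT10 KD sites at 1.89 and 1.79.

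Adaptor complexes link clathrin or other coats to cargo. Of the 25 genes that fit the AP pattern, 6 were listed (24.0%, interval 9.36 to 45.1), beside the 7.08% of all protein-coding genes, which lies below the interval. Many families were looked at and expression was not analysed, so no cause was tested. The 6 genes all belong to AP-1, which sorts between the trans-Golgi network and endosomes, or AP-3, which sorts to lysosome-related organelles. In AP-1, the medium subunit gene AP1M2 had 2 minus-strand WT sites 329 bp apart on chromosome 19, at positions 10583666 (score 1.44, 24.9% along) and 10583995 (1.61, 22.7% along). Its relative AP1M1 had 1 WT site at 1.81 (chromosome 19, position 16228846). AP1S1, the small subunit, was in both lists at plus-strand positions 4198 bp apart on chromosome 7, at 101156661 in WT (1.49, 32.1% along) and 101160859 in NAT10 KD (1.68, 93.9% along).

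In AP-3, the large subunit gene AP3D1 was also in both lists at different positions of chromosome 19, 2111703 in WT (1.80, 83.2% along) and 2116627 in NAT10 KD (1.32, 75.4% along), which are 4924 bp apart on the minus strand. AP3B2, a beta subunit best known from neurons, had a WT site at 1.79 (chromosome 15, position 82708798), and AP3S2, a small subunit, a NAT10 KD site at 1.61 (chromosome 15, position 89889125, minus strand, 7.68% along). The AP3S2 position also lay inside ARPIN-AP3S2, a readthrough gene. CLTB, a clathrin light chain, scored 2.24 in WT (chromosome 5, position 176392897, minus strand), 98.2% along, 443 bases from the 3′ end of the gene and inside the span of ARL10 as well.

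SNARE proteins drive fusion, and 5 of their genes were listed, with 4 sites in each list. Of 16 genes that fit the STX pattern 3 were listed (18.8%, interval 4.05 to 45.6), and of 7 VAMP genes 1 (14.3%, interval 0.361 to 57.9). Both intervals cover the 7.08% of all protein-coding genes. STX10, a syntaxin of the trans-Golgi network, had the second highest member score, 3.61 in WT (chromosome 19, position 13149543, minus strand, 13.2% along). STX8, an endosomal syntaxin, had 2 WT sites on chromosome 17 that lay 18343 bp apart, on the minus strand at positions 9557452 (1.92, 5.65% along) and 9575795 (1.32). The latter, printed above, was the 26th base of the annotated gene. STX16, a Golgi syntaxin, had the only vesicle transport site found in both lists: position 58651325 of chromosome 20, plus strand, the 43rd base of the gene, with a score of 1.36 in WT and 1.89 in NAT10 KD. A further NAT10 KD site of STX16 at position 58668111 scored 1.497 (59.6% along), and both lay inside STX16-NPEPL1 too. VAMP5 (1.39) and SEC22B (1.52), a SNARE of traffic between endoplasmic reticulum and Golgi, were in NAT10 KD only.

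Tethers and other vesicle genes gave single sites for the most part. VPS51, a subunit of the GARP and EARP tethers, had 2 plus-strand WT sites on chromosome 11, at position 65097033 with 1.74 and at position 65108217 with 2.38, 5.23% and 76.7% along. EXOC7, of the exocyst, which tethers vesicles to the plasma membrane, scored 1.66 in NAT10 KD (chromosome 17, position 76092642, minus strand, 48.9% along). TRAPPC2L, of the TRAPP complex, scored 1.56 in WT. SEC11C, a catalytic subunit of the signal peptidase of the endoplasmic reticulum, reached 2.83 in WT (chromosome 18, position 59152590, plus strand, 67.1% along). SEC24D, a cargo-binding subunit of the COPII coat, was in NAT10 KD at 1.39, as was VPS4A, the ATPase that disassembles ESCRT filaments, at 1.63 (chromosome 16, position 69324241, plus strand, 82.7% along). The cargo receptor family gene TMED1 (1.55) and the sorting nexin gene SNX21 (1.39) were in WT. VPS51, EXOC7 and TRAPPC2L, like AP1M2, STX8, IPO5, KPNB1 and TNPO3, have a pseudogene named after them, from which reads can be placed on the parent gene. Only names made of the gene symbol, a P and an optional number were matched, so copies named otherwise would be missed.

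Nucleoporins accounted for 4 of the 9 nuclear transport genes, and all 4 were in the NAT10 KD list, with NUP93 and NUP160 in both. The NAT10 KD list held 845 of all 1506 listed genes. NUP93, which anchors the inner ring of the pore, had its site at position 56730188 of chromosome 16, plus strand, the 60th base of the gene, with a score of 1.59 in WT and 2.12 in NAT10 KD. NUP160, of the Y complex that forms the outer rings, had 1 position in both lists (chromosome 11, 47819418, minus strand, 41.4% along), at 1.53 in WT and 1.82 in NAT10 KD. NUP205, a partner of NUP93 in the inner ring, scored 1.81 (chromosome 7, position 135635634, plus strand, 85.6% along), and NUP54, of the central channel, 1.56 (chromosome 4, position 76118149, minus strand, 89.7% along), both in NAT10 KD. Of 23 genes that fit the NUP pattern, these 4 were listed (17.4%, interval 4.95 to 38.8), beside the 7.08% of all protein-coding genes, which lies inside the interval. By whole subset, 9 of 47 protein-coding genes of nuclear transport were listed (19.1%, interval 9.15 to 33.3). In vesicle transport 30 of 277 were (10.8%, interval 7.43 to 15.1). Both of these intervals lie above 7.08%. Expression was not analysed here, so the cause was not tested.

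Transport receptors made up the other 5 genes. By pattern, 2 of 7 IPO, 1 of 6 XPO, 1 of 8 KPN and 1 of 3 TNPO genes were listed. Each interval covers the 7.08% of all protein-coding genes. IPO5, an importin of ribosomal proteins and histones, was in both lists at different plus-strand positions of chromosome 13, with WT sites at 98006328 (1.37) and 98019751 (1.66) and a NAT10 KD site between them at 98012256 (1.32). All 3 lay 74.6% to 93.6% along the gene. KPNB1, importin beta, scored 1.48 in NAT10 KD (chromosome 17, position 47682719, 92.2% along), and IPO11 1.34 (chromosome 5, position 62601819), where the readthrough gene IPO11-LRRC70 overlaps it. XPO1, the main exportin of proteins with a leucine-rich export signal, was in WT at 1.53 (chromosome 2, position 61533790, minus strand, 7.94% along). TNPO3, the importin of SR splicing factors, was in WT at 1.38 (chromosome 7, position 128954281), 97 bases from the 3′ end of its span.

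Across the 41 genes, 7 were in both lists (17.1%, interval 7.15 to 32.1), beside 14.7% of all listed genes. They were 25.0% of the 28 WT members and 35.0% of the 20 NAT10 KD members. By subset, 4 of 32 vesicle transport genes (12.5%) and 3 of 9 nuclear transport genes (33.3%, interval 7.49 to 70.1) were in both. By position, 3 of 51 member sites were in both lists (5.88%, interval 1.23 to 16.2), beside 5.62% of all distinct sites. Both shares are near those over the whole lists. Of the 7 genes, 3 had a shared position (NUP93, NUP160 and STX16) and 4 only different ones (RAB34, AP1S1, AP3D1 and IPO5), as 97 and 125 of the 222 genes in both lists did. At the 3 shared positions the score was the higher in NAT10 KD each time, by 0.53 in NUP93, 0.29 in NUP160 and 0.52 in STX16, whereas 36.5% of all 104 shared positions scored higher there. Scores from separate lists can differ with depth, so the pairs describe the lists and not the level of acetylation.

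Member sites lay at a median of 57.6% of the gene span from the 5′ end in WT (33 sites, interval of the median 13.2 to 73.9) and at 82.0% in NAT10 KD (21 sites, 51.6 to 89.7). Over all listed sites inside a gene span the medians were 56.9% and 62.6%. The intervals of the member medians overlap. At 80% of the span or beyond were 7 of 33 WT member sites (21.2%, interval 8.98 to 38.9) and 12 of 21 NAT10 KD member sites (57.1%, interval 34.0 to 78.2), beside 29.5% and 34.1% of all listed sites. The 12 lay in ARF3, VAMP5, VPS4A, IPO5, NUP205, IPO11, NUP54, RAB34, KPNB1, SEC24D, AP1S1 and RAB5A. The stretch up to 20% held 11 WT member sites (33.3%, beside 26.8% of all listed WT sites) and 3 in NAT10 KD (14.3%, beside 25.0%). Those of WT were in STX8, STX16, NUP93, AP3B2, TMED1, ARF6, VPS51, RAB30-DT, XPO1 and STX10. Those of NAT10 KD were in STX16, NUP93 and AP3S2. A gene span includes introns and the exon structure was not used, so these percentages are not positions in the mature mRNA. All 54 member entries lay inside the span of their gene, and the 49 whose gene had an annotated strand lay on that strand.

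**Figure D3:**
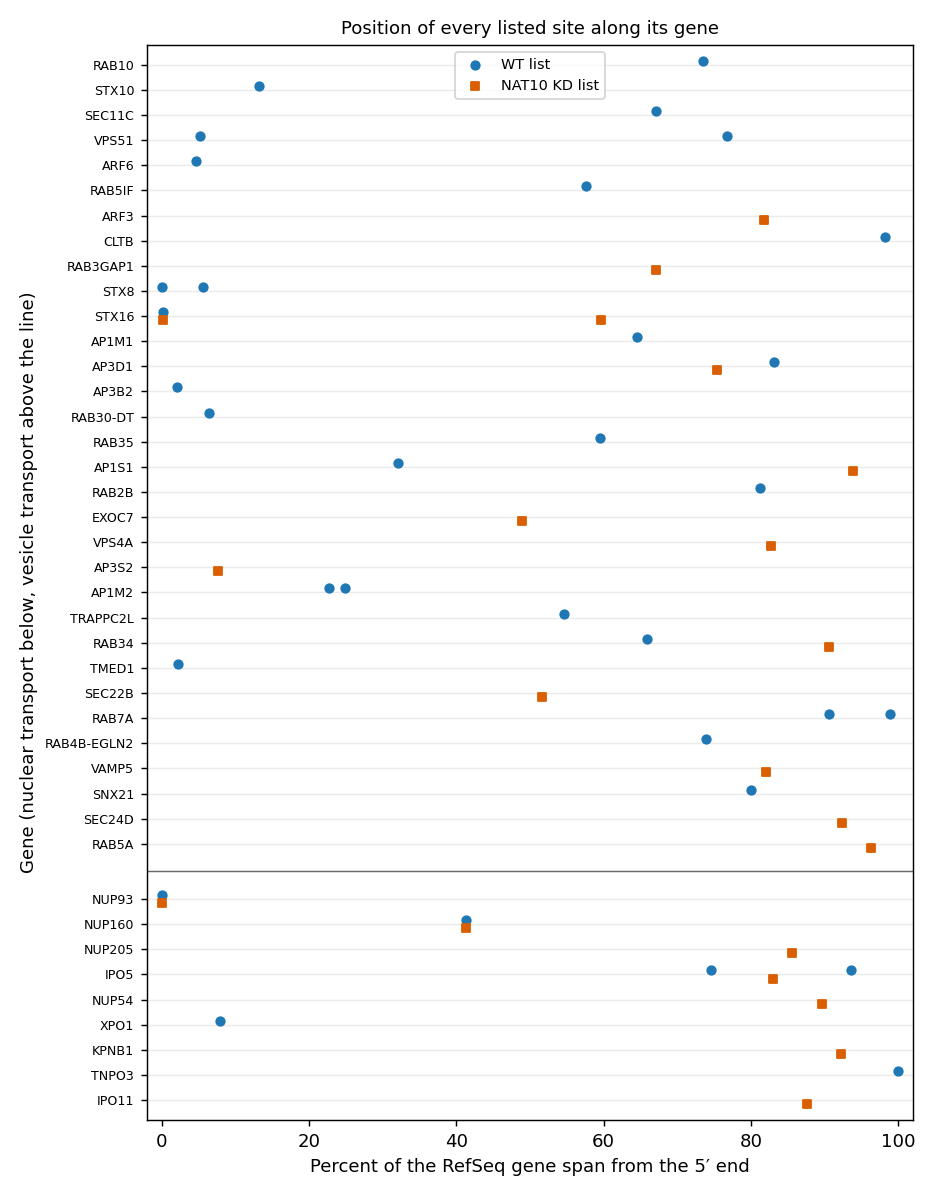
Position of every listed site along its gene (horizontal axis, percent of the RefSeq gene span from the 5′ end), with genes in the order of the score plot, nuclear transport below the line. Blue circles are WT sites and orange squares NAT10 KD sites. Of the 21 NAT10 KD squares, 12 lie at 80% or beyond, as do 7 of the 33 WT circles.

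Sites within 100 bases of the annotated gene start numbered 4 in WT (12.1% of member sites, beside 5.80% of all positioned WT sites) and 2 in NAT10 KD (9.52%, beside 6.79%). They lay in STX8, STX16, NUP93 and TMED1 in WT and in STX16 and NUP93 in NAT10 KD. Chromosome 19 held 7 of the 33 WT member sites (21.2%, interval 8.98 to 38.9), beside 9.35% of the WT list, and 1 of the 21 NAT10 KD member sites (4.76%, interval 0.120 to 23.8), beside 9.68%. AP1M2 supplied 2 of the 7, and AP3D1, AP1M1, TMED1, STX10 and RAB4B-EGLN2 the others.

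Partner genes of the same pathways, outside the symbol rule, were read from 5 lists. These partner lists were written with earlier results of these data known. Expression was not analysed here, so the shares of partners listed describe the lists only. Of 178 annotated partners in vesicle transport, 14 had a WT site and 12 a NAT10 KD site, at 14 sites in each list. The 24 genes listed were 13.5% of these partners, beside the 7.08% of all protein-coding genes, and 2 of the 24, ARL1 and RABAC1, were in both lists, beside 14.7% of all listed genes. ARL1, an ARF-like GTPase of the trans-Golgi network, had the same position in both lists, 101407681 of chromosome 12, at 2.65 in WT and 1.40 in NAT10 KD. RABAC1, a receptor for prenylated Rabs, had a WT site at 3.26 and a NAT10 KD site at 1.34, at different positions of chromosome 19. Golgi, tethering and SNARE partners had 5 genes per list, led by GOLGA4, a golgin, at 2.24 in WT and by ERGIC3, a protein of ER-to-Golgi traffic, at 3.48 in NAT10 KD. Rab and small GTPase regulators had 6 genes in the WT list and 5 in the other, where ARL3, an ARF-like GTPase of cilia, led with 2.49. RABAC1 led this list in WT. Endocytosis and ESCRT genes had 3 in WT, led by the ESCRT subunit CHMP1A at 2.37, and 2 in NAT10 KD, led by the dynamin DNM1 at 1.55.

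In nuclear transport, 59 annotated partners gave 5 listed genes for WT, 7 for NAT10 KD and 0 shared by the lists. The 12 listed were 20.3% of these partners, beside the 7.08% of all protein-coding genes. The same limit holds for this share, since the partners were picked with earlier results known. Of all listed genes, 14.7% were in both lists, so 0 shared among 12 is no result about them. The RAN cycle and mRNA export list had 5 genes in WT, led by CHTOP, an mRNA export factor, at 3.09, and 3 in NAT10 KD, led by the export helicase DDX19B at 2.45. Other nuclear pore and envelope genes, 24 in all, had 0 in WT and 4 in NAT10 KD, beside 4.19% and 3.94% of all protein-coding genes. With 1 list per genotype this difference has no test. It also depends on how genes were put into lists. RANBP2, a pore protein counted in the RAN cycle and mRNA export list, had a WT site at 1.39. The 4 NAT10 KD genes were SEH1L, a Y complex protein, at 2.50, the lamin LMNB2 at up to 2.19, the pore basket protein TPR at up to 1.96 and POM121C at 1.66.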

How the data were processed

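Site lists of H1 cells were analysed for WT and NAT10 KD. Per the submitters' processing notes, the tools were fastp (0.21.1), STAR (2.7.8a) and SAMtools (1.12), and the build was hg38. The site caller, its filters, the use of input and molecular identifiers and any pooling of replicates are not stated there. Each site carries a score made by the authors, as deposited, without a formula. Each list starts just above the −log10 of 0.05, but whether the score is such a value is not stated. Depth and filters are unknown, so absence from a list does not show that a base was unacetylated.

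The members and the partner gene lists were chosen with earlier results of these data known. Positions were matched at 0 bp tolerance and genes by the identifier of the lists. Gene spans, strands and sequence windows came from RefSeq tables of GRCh38.p14, the assembly of hg38, and all 41 members matched by symbol. Every member was named. Full values went to members in both lists, with several sites, or among the 8 (vesicle) and 4 (nuclear) highest scores of a list. Python 3.11.15, pandas 2.3.3, NumPy 2.4.6, SciPy 1.17.1 and matplotlib 3.10.9 were used. Matching was tested on simulated data.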

Additional observations from a re-analysis of the deposited data

How the results depend on the processing

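Over 45 alternatives for 12 results, 37 values stayed within 1.5 times the count or within the interval of the share or median, and 8 moved. A change of direction was not scored, and some of the 37 could not have moved. RAB30-DT, RAB4B-EGLN2 and RAB5IF are vesicle transport genes with WT sites only. Leaving them out could not change nuclear transport values, or counts and medians of NAT10 KD sites. A planned list of members that belong by name took only RAB3GAP1, so it could change only vesicle transport values. Raising the score minimum to 1 above the lowest listed score (2.30) moved 7: it left 6 vesicle transport sites in WT and 1 in NAT10 KD (14.3% of these 7 entries in NAT10 KD), 0 nuclear transport sites in WT and 0 in NAT10 KD, and 0% of member sites and 0% of member genes in both lists. Leaving out members with a pseudogene named after them moved nuclear transport in WT to 3 sites. Leaving out RAB30-DT, RAB4B-EGLN2 and RAB5IF was chosen after seeing the data, as was the share of entries in NAT10 KD. At that minimum nuclear transport had no entries to take a share of. No paired analysis was possible because the lists carry no replicate values, and for the same reason no replicate could be left out. Depth behind a site is unknown.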
